A study of Mus musculus with 4 samples.

Results

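Dendritic cells of the mouse lung were taken from 4 scRNA-Seq libraries by the unique molecular identifier (UMI) counts of a few genes, a UMI being a tag that counts each captured transcript once. A cell was kept when it held 200 to 7500 genes and at most 10% mitochondrial UMIs. It was called a dendritic cell when at least 2 of 8 genes (*Flt3*, *Zbtb46*, *Xcr1*, *Clec9a*, *Cd209a*, *Ccr7*, *Ccl22* and *Ccl17*) had a UMI, *H2-Ab1* and *Cd74* together had at least 20 UMIs, the 3 C1q genes of macrophages had fewer than 10, and *Cd79a*, *Cd3e* and *Cdh5*, which mark B cells, T cells and endothelium, had none. The cells were thus chosen by the UMI counts of these genes, and 315 dendritic cells were found among 11846 cells kept. Each library held the pooled left-lobe lung cells of 3 wild-type C57BL/6 male mice, on a restricted diet per the labels, young (2 to 3 months) or aged (22 months), and either nonventilated or ventilated for 3 hours with a high tidal volume, pure oxygen and no end-expiratory pressure. Ventilated mice were also anesthetized and given an analgesic, and the parts of these, of oxygen and of ventilation cannot be told apart. All lung cells had been cryopreserved before capture. The libraries held 41222284 and 44404172 UMIs in the young nonventilated and ventilated groups and 45218176 and 40655452 in the aged ones, and wherever 4 values stand in a row below they are in this order. With 1 library per group there was no replicate, no test across mice was possible, and the 95% intervals given below cover counting error only.

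Dendritic cells sample antigen and present it to T cells on MHC class II. In the lung, conventional type 1 dendritic cells (cDC1) take up dying cells and cross-present their antigen to CD8+ T cells, conventional type 2 cells (cDC2) mainly prime CD4+ T cells, and both mature, switch on the homing receptor *Ccr7* and travel to the draining lymph node. *Flt3* is the receptor for the growth factor that maintains these cells, and *Zbtb46* is a transcription factor of the conventional lineage. Interferon-stimulated genes are switched on through the interferon-stimulated response element, and the metallothioneins *Mt1* and *Mt2*, small metal-binding proteins, through the metal response element.

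The promoters below are those of 4 interferon-stimulated genes, a selection, and of *Mt1* and *Mt2*, all of them at different levels in ventilated and nonventilated libraries, and are shown because the expression results return to both groups. The sequences are the 250 bases before the gene start in RefSeq (build GRCm38.p6), read in the direction of the gene. In the first 4, capitals mark every match to GAAANNGAA, a core of the interferon-stimulated response element, on either strand. In the last 2 they mark TGCNCNC on either strand, a loose form of the metal response element core, so some marked stretches may not match the stricter core. The windows were at chr4:156200819-156201068, - strand for *Isg15*, chr11:82951852-82952101, + strand for *Slfn5*, chr7:104465194-104465443, - strand for *Trim30a*, chr1:173913047-173913296, - strand for *Ifi211*, chr8:94178839-94179088, + strand for *Mt1* and chr8:94172368-94172617, + strand for *Mt2*.
Isg15: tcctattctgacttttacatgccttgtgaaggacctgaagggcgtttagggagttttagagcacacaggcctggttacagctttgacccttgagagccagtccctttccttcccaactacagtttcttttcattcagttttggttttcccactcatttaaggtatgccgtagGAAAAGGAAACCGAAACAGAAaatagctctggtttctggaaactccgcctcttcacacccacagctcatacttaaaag
Slfn5: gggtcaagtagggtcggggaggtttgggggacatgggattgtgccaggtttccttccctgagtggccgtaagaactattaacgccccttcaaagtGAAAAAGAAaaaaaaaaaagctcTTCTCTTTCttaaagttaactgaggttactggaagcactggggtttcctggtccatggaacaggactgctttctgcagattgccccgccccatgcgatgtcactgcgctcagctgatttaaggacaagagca
Trim30a: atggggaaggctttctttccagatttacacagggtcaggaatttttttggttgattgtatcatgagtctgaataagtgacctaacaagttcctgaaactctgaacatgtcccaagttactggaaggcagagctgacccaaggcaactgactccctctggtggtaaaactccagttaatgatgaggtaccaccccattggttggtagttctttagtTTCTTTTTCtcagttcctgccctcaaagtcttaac
Ifi211: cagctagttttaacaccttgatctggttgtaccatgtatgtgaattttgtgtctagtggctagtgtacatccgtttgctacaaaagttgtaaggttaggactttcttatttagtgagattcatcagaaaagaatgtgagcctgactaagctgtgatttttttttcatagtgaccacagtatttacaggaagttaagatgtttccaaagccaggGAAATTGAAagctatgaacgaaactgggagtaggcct
Mt1: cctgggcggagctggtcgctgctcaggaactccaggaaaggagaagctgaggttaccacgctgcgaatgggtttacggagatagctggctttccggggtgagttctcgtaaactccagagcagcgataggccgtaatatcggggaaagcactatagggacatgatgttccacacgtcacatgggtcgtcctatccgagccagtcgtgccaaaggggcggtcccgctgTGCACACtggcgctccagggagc
Mt2: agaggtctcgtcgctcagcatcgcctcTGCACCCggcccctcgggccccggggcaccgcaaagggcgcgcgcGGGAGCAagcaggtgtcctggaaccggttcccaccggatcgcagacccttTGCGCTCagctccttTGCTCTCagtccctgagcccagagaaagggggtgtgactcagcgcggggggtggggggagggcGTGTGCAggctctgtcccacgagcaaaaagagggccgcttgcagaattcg
The *Isg15* window held 3 overlapping matches, which begin 78, 72 and 66 bases before the gene start. The core GAAANNGAA was found in 7.16% of 27025 promoter windows of this length. Of the 10 genes of the interferon response list that were tested in young mice, 7 had a promoter in the table and all 7 held a match. The windows of *Irf1* and *Irf7*, listed genes that did not pass the filter in that comparison, held none. The loose form TGCNCNC is short and was found in 43.8% of all windows, with 1 match in *Mt1* and 5 in *Mt2*. A match is a description of these letters and was not tested as a site.

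Dendritic cells numbered 79 of 2942 cells kept in nonventilated and 63 of 3327 in ventilated young mice, and 98 of 3025 and 75 of 2552 in aged mice. In young mice the share was 2.69% (exact binomial 95% interval 2.13 to 3.34) without and 1.89% (1.46 to 2.42) with ventilation, and in aged mice 3.24% (2.64 to 3.93) without and 2.94% (2.32 to 3.67) with it. The share was lower in the ventilated library at each age, and the intervals overlapped at both. Of the cells with a UMI of *Ptprc*, the pan-leukocyte gene CD45, dendritic cells were 8.62% (6.89 to 10.6), 5.26% (4.04 to 6.72), 7.84% (6.40 to 9.48) and 6.33% (5.0 to 7.88), and here the intervals of the young libraries did not overlap. Dendritic cells were deeply sampled, with a median of 21104, 21579, 22052 and 25605 UMIs per cell against 9974.5, 8994, 10753 and 10971 over all cells kept, and they summed to 1741838, 1546741, 2168295 and 1959472 UMIs. A single cell barcode occurred among the dendritic cells of more than 1 library, and 10 did among all cells kept.

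Among the 8 genes that chose the cells, *Flt3* had a UMI in 86.7% of them, *Zbtb46* in 79.4%, *Clec9a* in 67.0%, *Ccl17* in 64.8%, *Xcr1* in 60%, *Ccl22* in 53.7%, *Cd209a* in 31.7% and *Ccr7* in 17.5%. At the edge of the choice, 40 cells had exactly 2 of the 8 genes and 275 had 3 or more, while 164 cells outside met every other condition with 1 gene. The median count of *H2-Ab1* and *Cd74* was 98.5 UMIs in the cells with 2 genes, 650.0 in those with 3 or more and 51.0 in those outside with 1. The other limits were rarely close, since 4 cells lay at 20 to 24 UMIs of *H2-Ab1* and *Cd74* and 3 just outside at 15 to 19, and 2 cells lay at 5 to 9 C1q UMIs and 3 just outside at 10 to 14. These values are a description, since they chose the cells.

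Most of the cells had the markers of cDC1. By the share of cDC1 and of cDC2 markers with a UMI, 205 cells (65.1%) were cDC1-like and 63 (20%) cDC2-like, and 18 cells (5.71%) with at least 10 of 16 maturation markers were called mature dendritic-like. Summed over the cDC1-like cells, the chemokine receptor *Xcr1* was at 228 CPM (UMIs per 1000000 UMIs of the same cells) and listed at 0 in the cDC2-like cells, and the integrin *Itgae* (CD103) was at 269 against 6.13 CPM. In the cDC2-like cells, the lectin *Mgl2* was at 1046 against 105 CPM in cDC1-like cells and the inhibitory receptor *Sirpa* at 221 against 8.11. The genes leading the cDC2-like cells by ratio were *Retnla*, *Mmp12* and *Ptgs2*, ahead of *Cd209a* and *Mgl2*. In the mature dendritic-like cells, the actin-bundling gene *Fscn1* reached 2652 CPM and *Ccr7* 3079. *Retnla*, *Mmp12* and *Ptgs2* were in no marker list and the other genes helped to define the subsets, and all are given as a description. The limits between subsets were set after the cells were seen, and 8 cells had cDC1 and cDC2 shares within 10 points of each other.

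The label did not hold for every cell. A group of 18 cells (5.71%) had at least 6 of 10 alveolar macrophage markers, with *Chil3* at 6074 CPM against 5.34 in the cDC1-like cells, *Ear1* at 436 against 0.198, and *Flt3* at 23.8 against 240.4. These macrophage-marker cells numbered 4, 4, 8 and 2 in the 4 libraries. A further 11 monocyte-marker cells carried *F13a1*, *Ly6c2* and *Lyz2* beside *Flt3* at 260.1 CPM, with 11 of 14 cDC2 markers in at least 20% of them, and numbered 8, 0, 2 and 1. A count of 0 of 63 cells in the young ventilated library, taken as up to 3 cells, allows a share of up to 4.76%. The 8 markers of plasmacytoid dendritic cells summed to 1660 CPM in the monocyte-marker cells, with *Siglech* at 288 CPM. Of the *Siglech* UMIs of all dendritic cells, 1 cell held 37.4%, so this level can rest on few cells. The sum of the 8 markers was 269 CPM in the cDC1-like, 535 in the cDC2-like and 539 in the mature dendritic-like cells. Over the dendritic cells of the 4 libraries it was 404, 473, 271 and 287 CPM. All of the macrophage-marker and monocyte-marker cells met the conditions and stay in the sums below, and values without the macrophage-marker cells are added for some of the genes that rest on them.

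The cDC1-like share of the dendritic cells was 54.4% (42.8 to 65.7) in nonventilated and 76.2% (63.8 to 86.0) in ventilated young mice, and 61.2% (50.8 to 70.9) and 72% (60.4 to 81.8) in aged mice. The cDC2-like share was 26.6% (17.3 to 37.7), 12.7% (5.65 to 23.5), 21.4% (13.8 to 30.9) and 17.3% (9.57 to 27.8). At both ages the ventilated library had the larger cDC1-like and the smaller cDC2-like share, and the intervals overlapped in each comparison. Mature dendritic-like cells numbered 3, 3, 7 and 5.

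**Figure D1:**
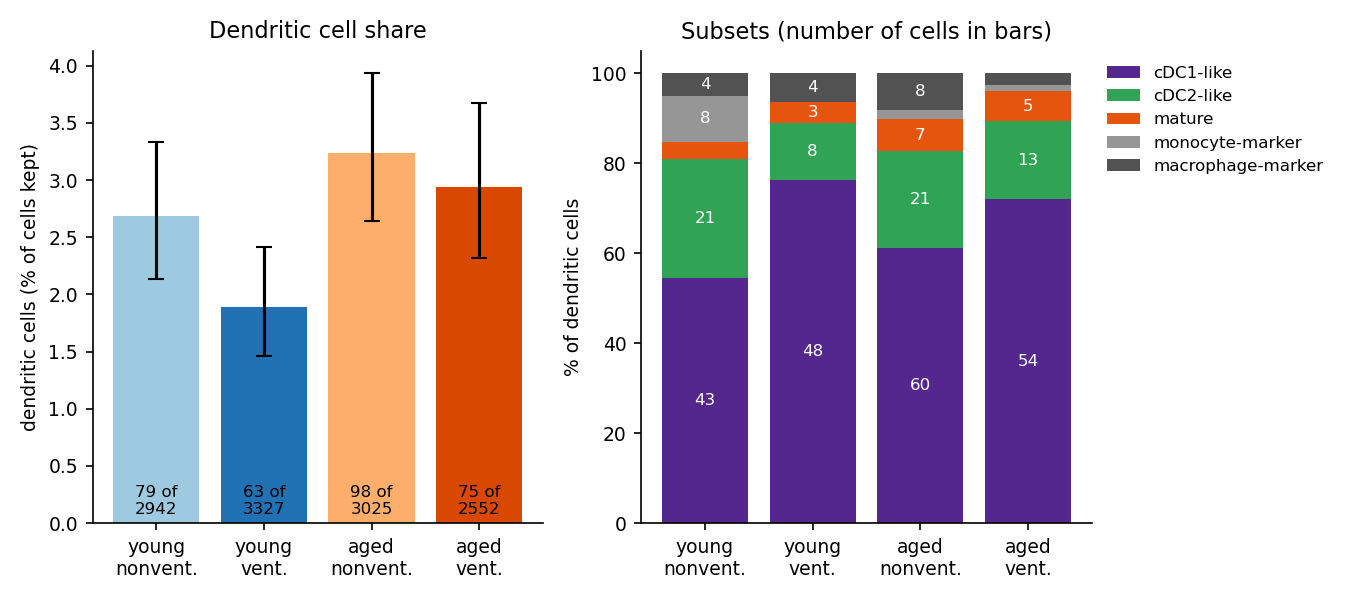
Left, dendritic cells as a percentage of the cells kept in each library, with exact binomial 95% intervals and the cell numbers in the bars. Right, the subsets as a percentage of the dendritic cells, with cell numbers where there is room; the cDC1-like part is the largest in all 4 libraries, with 43, 48, 60 and 54 cells.

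Markers of other cell types were detected in every library. The 10 epithelial markers, of which all had a UMI, summed to 280.2, 337, 324 and 206 CPM in the 4 libraries, and the most abundant of them, the club cell gene *Scgb1a1*, had a UMI in 81.0% of the dendritic cells. The 10 alveolar macrophage markers summed to 607, 1264, 1317 and 445 CPM, led by *Chil3*. The 9 classical monocyte markers, *Chil3* among them, summed to 909, 784, 1319 and 505 CPM, and the 9 nonclassical monocyte markers, led by *Nr4a1*, which is also in the immediate early list, to 907, 401, 747 and 549.6 CPM. The 12 T, NK and innate lymphoid markers summed to 68.3, 69.8, 85.8 and 73.0 CPM, with *Cd3e*, *Cd3g*, *Nkg7*, *Ncr1* and *Lck* at 0 in every cell, *Cd3e* by the choice of cells. The 10 B and plasma cell markers summed to 77.5, 32.3, 76.6 and 40.3 CPM with *Cd79a* and *Pax5* at 0, the 10 endothelial markers to 51.7, 188, 96.4 and 53.1 CPM with *Cdh5* at 0, and the 8 neutrophil markers to 298, 236, 260.1 and 407 CPM. *Cdh5* and *Cd79a* are also at 0 by the choice of cells. The endothelial sum was led by *Car4*, which was at 571 CPM in the macrophage-marker and 2.77 CPM in the cDC1-like cells, with 54.4% of its young ventilated UMIs in 1 cell. The neutrophil sum was led by *Il1r2*, a decoy receptor gene that was at 656 CPM in the cDC2-like and 197 CPM in the cDC1-like cells and had a UMI in 67.3% of the dendritic cells. The 10 mesenchymal markers summed to 1638, 53.0, 867 and 371 CPM, mostly from *Mgp*, and a single cell held 95.8% of the *Mgp* UMIs of the young nonventilated library. In all, 4 of the 315 dendritic cells had fewer than 3 UMIs over the lymphoid, B cell, neutrophil, endothelial, epithelial and mesenchymal markers, *Il1r2* and *Scgb1a1* among them. The part of such RNA in the results was not tested.

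For each comparison, the UMIs of the dendritic cells were summed per library, and a gene was tested when it averaged 50 CPM or more across the pair of libraries and had 20 UMIs or more in 1 of them, its log2 ratio being taken after adding 1 UMI. A gene was counted when it differed at least 2-fold. The first question was how dendritic cells of ventilated lungs differ from those of nonventilated lungs of the same age. In young mice, 123 of 3173 genes were at least 2-fold higher in the ventilated library (3.88%) and 165 were at least 2-fold lower (5.20%). In aged mice, 52 of 3169 genes were higher (1.64%) and 108 were lower (3.41%). In the cDC1-like cells alone, 147 were higher and 139 lower in young mice, and 64 higher and 88 lower in aged mice.

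In young mice, the genes with the largest ratios in the ventilated library included the stress-response gene *Ndrg1*, the ubiquitin-like interferon-stimulated gene *Isg15*, the membrane protein gene *Ms4a6d* and the interferon-induced *Ifitm2*. *Ms4a6d* (chr19:11586604-11604849, - strand, GRCm38) was at 37.9 CPM in young nonventilated and 343 CPM in young ventilated cells and at 22.1 and 130.1 CPM in the aged cells. Both ventilated libraries stood above both nonventilated ones, and the level was 9.06-fold higher (95% interval 7.01 to 11.9) in young and 5.88-fold higher (95% interval 4.30 to 8.18) in aged mice. *Ifitm2* was at 218 CPM in young nonventilated and 870.2 CPM in young ventilated cells and at 182 and 774 CPM in the aged cells, and it was 3.99-fold higher (95% interval 3.56 to 4.48) in young and 4.26-fold higher (95% interval 3.81 to 4.77) in aged mice. Among the cDC1-like cells alone, the log2 ratio of *Ifitm2* was 3.63 in young and 2.68 in aged mice, against 1.99 and 2.09 in all dendritic cells, and that of *Ms4a6d* 2.97 and 3.44, against 3.16 and 2.53. Both genes belong to families of similar sequence, among which reads can be split.

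*Isg15* (chr4:156199424-156200818, - strand) was at 10.3 CPM in young nonventilated and 127 CPM in young ventilated cells and at 14.8 and 44.9 CPM in the aged cells. It was 12.3-fold higher (95% interval 7.60 to 21.2) with ventilation in young and 3.04-fold higher (95% interval 2.01 to 4.71) in aged mice, and the young ventilated library stood apart from the other 3. Its young log2 ratio was 3.55, and 4.43 in the cDC1-like cells alone. *Ndrg1* (chr15:66929318-66969640, - strand) was at 6.32 CPM in young nonventilated and 129 CPM in young ventilated cells and at 33.2 and 63.3 CPM in the aged cells, which was 20.5-fold higher (95% interval 11.2 to 41.7) in young and 1.91-fold higher (95% interval 1.41 to 2.58) in aged mice. Its level in the aged nonventilated library was 5.26-fold higher (95% interval 2.77 to 11) than in the young one. *Isg15* and *Ndrg1* in aged mice were below the 50 CPM mean and were not among the 3169 genes counted. *Ndrg1* was also below that mean between the nonventilated libraries of the 2 ages, and was not among the 3187 genes counted there.

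The other genes with the largest ratios in young mice were *Ramp3*, a receptor activity-modifying protein, at 31 and 169 CPM (5.46-fold higher, 95% interval 4.06 to 7.47), the surface protein gene *Plet1* at 107 and 516 CPM (4.81-fold higher, 95% interval 4.09 to 5.67), and the adhesion gene *Flrt3* at 28.7 and 128 CPM (4.46-fold higher, 95% interval 3.26 to 6.21). In aged mice, *Ramp3* was at 33.2 and 42.9 CPM and *Flrt3* at 30.9 and 30.1, and both intervals of the ratio held 1. The young log2 ratio of *Flrt3* was 2.14 in all dendritic cells and 4.51 in the cDC1-like cells alone, and that of *Plet1* 2.26, and 2.86 without the macrophage-marker cells. *Fabp5*, a fatty acid-binding protein, was at 29.9 CPM in young nonventilated and 396 CPM in young ventilated cells and at 175 and 466 CPM in the aged cells. In the cDC1-like cells it was at 0, 2.58, 20.0 and 0.678 CPM, and its UMIs lay mostly in the mature dendritic-like and cDC2-like cells, with 3065 and 450.5 CPM over all libraries, so its ratio rests on few cells.

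Among the genes lower in young ventilated mice, *Inpp4b*, a phosphoinositide phosphatase, was at 198 CPM in young nonventilated and 15.5 CPM in young ventilated cells and at 148 and 47 CPM in the aged cells. It was 12.8-fold lower (95% interval 8.44 to 20.2) in young and 3.15-fold lower (95% interval 2.49 to 4.02) in aged mice, and the ventilated library was the lower at both ages. *Egr1*, an immediate early transcription factor, was at 811 CPM in young nonventilated and 96.3 CPM in young ventilated cells and at 459 and 270.0 CPM in the aged cells, which was 8.42-fold lower (95% interval 7.11 to 10.0) in young and 1.70-fold lower (95% interval 1.53 to 1.89) in aged mice. The helicase gene *Dhx40* was at 395 CPM in young nonventilated and 72.4 CPM in young ventilated cells and at 273 and 222 CPM in the aged cells, which was 5.45-fold lower (95% interval 4.46 to 6.72) in young and 1.23-fold lower (95% interval 1.08 to 1.39) in aged mice. Others with low ratios were *Egr3* (4.73-fold lower), *Rtl8b* (6.51-fold lower), *Gas7* (6.09-fold lower) and *Cd209a*. The DC-SIGN family lectin *Cd209a* was at 328 CPM in young nonventilated and 62.1 CPM in young ventilated cells and at 151 and 189 CPM in the aged cells. It is 1 of the 8 genes that chose the cells and a cDC2 marker, and its level is given as a description beside the cDC2-like numbers of 21, 8, 21 and 13 cells. In the cDC1-like cells, *Cd209a* was at 119, 15.5, 42.1 and 46.8 CPM.

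**Figure D2:**
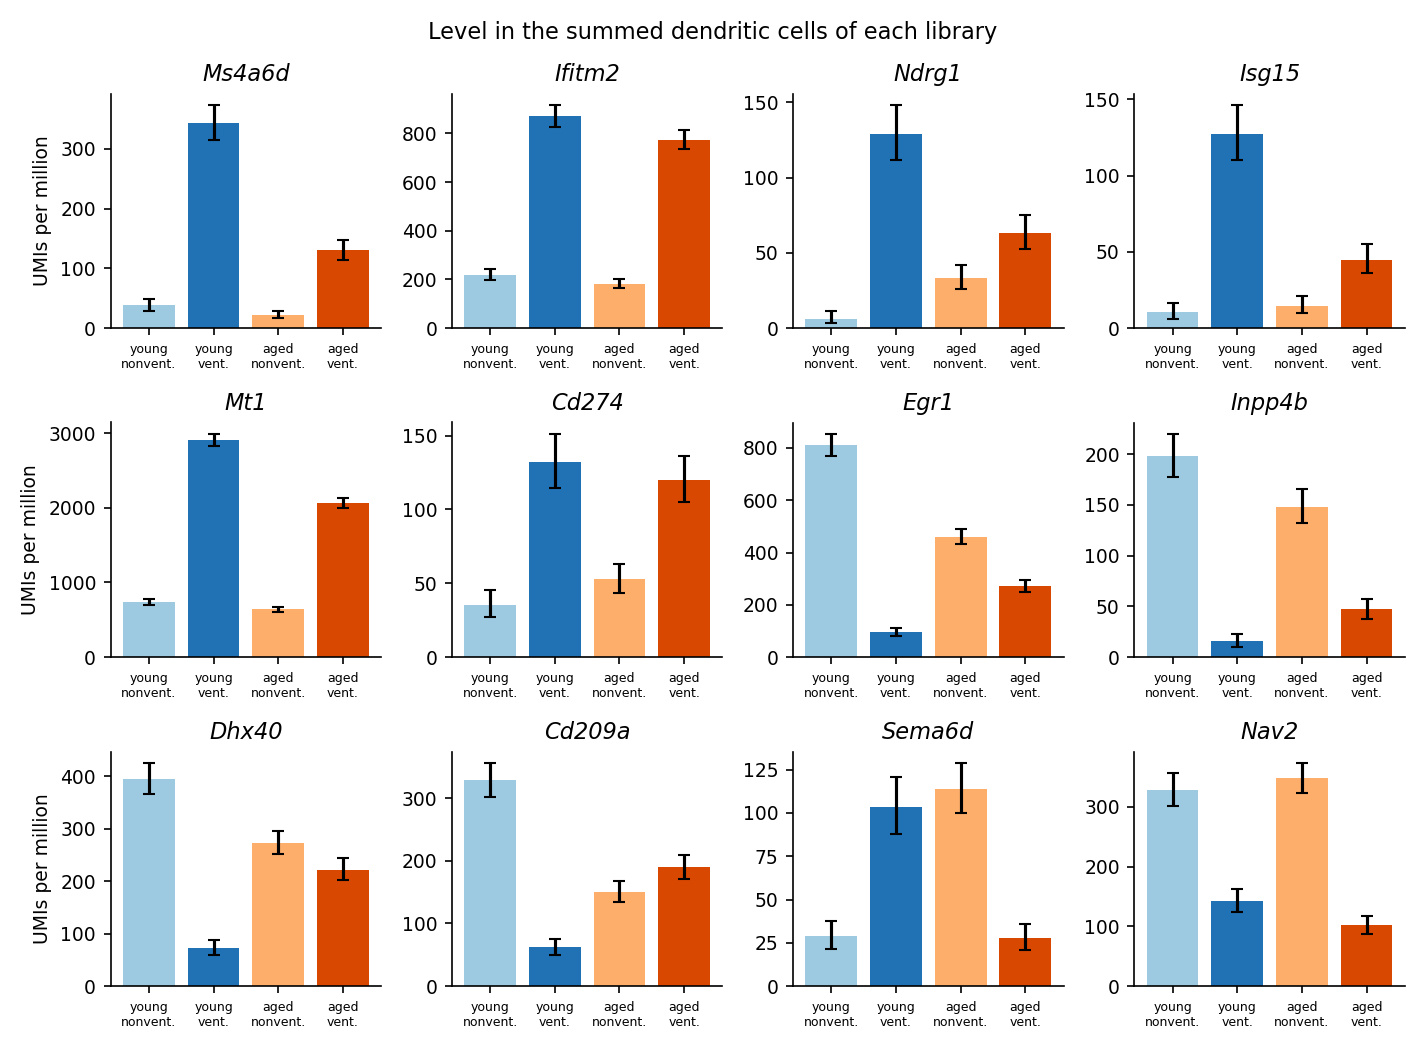
Level of 12 named genes in the summed dendritic cells of each library, in CPM, with exact Poisson 95% intervals as error bars. *Ms4a6d*, *Ifitm2*, *Ndrg1*, *Isg15*, *Mt1* and *Cd274* are higher in both ventilated libraries. *Egr1*, *Inpp4b*, *Dhx40* and *Nav2* are lower in both, and *Sema6d* is high in the young ventilated and the aged nonventilated libraries, at 103 and 114 CPM.

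In aged mice, the largest ratios after *Ms4a6d* and *Ifitm2* were those of *Slfn5*, a Schlafen family gene, at 34.6 and 136 CPM (3.92-fold higher, 95% interval 3.03 to 5.14), of *Wfdc17* at 101 and 356 CPM (3.52-fold higher, 95% interval 3.02 to 4.12), and of *Tmem173*, which encodes the DNA-sensing adaptor STING, at 22.6 and 77.6 CPM (3.43-fold higher, 95% interval 2.47 to 4.84). *Sult1a1* was 3.39-fold higher, *Zdhhc23* 3.32-fold higher and *Arid5b* 3.28-fold higher. In young mice these genes were 2.11-fold higher (*Slfn5*), 3.49-fold higher (*Wfdc17*), 1.52-fold higher (*Tmem173*), 1.89-fold higher (*Sult1a1*), 3.10-fold higher (*Zdhhc23*) and 2.24-fold higher (*Arid5b*), so all 6 were higher with ventilation at both ages. The aged log2 ratio of *Wfdc17* was 1.81 in all dendritic cells and 3.96 in the cDC1-like cells alone.

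Among the genes lower in aged ventilated mice, *Fry* was at 102 and 16.3 CPM (6.24-fold lower, 95% interval 4.29 to 9.35), the TGF-beta receptor gene *Tgfbr1* at 220.4 and 64.3 CPM (3.43-fold lower, 95% interval 2.81 to 4.21) and *Nav2* at 348 and 102 CPM (3.43-fold lower, 95% interval 2.93 to 4.03). *Tgfbr1* was 1.48-fold higher (95% interval 1.25 to 1.76) with ventilation in young mice. *Sema6d*, a semaphorin, was at 114 and 27.6 CPM in aged mice (4.13-fold lower, 95% interval 3.07 to 5.66) but at 28.7 and 103 CPM in young mice (3.60-fold higher, 95% interval 2.61 to 5.06). The cholesterol transporter gene *Abcg1* moved with the macrophage-marker cells, of which there were 8 without and 2 with ventilation in aged mice. Its log2 ratio was -1.80 in all dendritic cells, -0.67 without the macrophage-marker cells and 0.060 in the cDC1-like cells alone, and it summed to 999.5 CPM in the macrophage-marker and 17.4 CPM in the cDC1-like cells. *Atxn1* had a log2 ratio of -2.12 in all dendritic cells and 0.51 in the cDC1-like cells, where it was at 4.35 CPM. Without the macrophage-marker cells it was -2.60, and *Atxn1* was at 518 CPM in the mature dendritic-like and 639 CPM in the macrophage-marker cells. The log2 ratio of *Nav2* was -1.77, and -2.83 in the cDC1-like cells. *Lrmda* was 4.24-fold lower.

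The cDC1-like cells, the largest subset, allowed the spread over single cells to be described. The median *Mt1* level per cell was 121 CPM (quartiles 50.0 to 316) in 43 young nonventilated cells, 2318 (815 to 3602) in 48 young ventilated, 83.1 (24.9 to 450.2) in 60 aged nonventilated and 1252 (666 to 3058) in 54 aged ventilated cells. The quartile ranges of ventilated and nonventilated cells did not overlap at either age. The median *Egr1* level was 771, 47.1, 349 and 175 CPM, lowest in the young ventilated cells. The median *Ms4a6d* level was 0, 183, 0 and 30.9 CPM. For *Isg15* the median was 0 in every library, and the upper quartile was 107 CPM in the young ventilated cells and 0 in the others, so its level came from a minority of cells. Cells of a library are not replicates and these values describe their spread only.

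**Figure D3:**
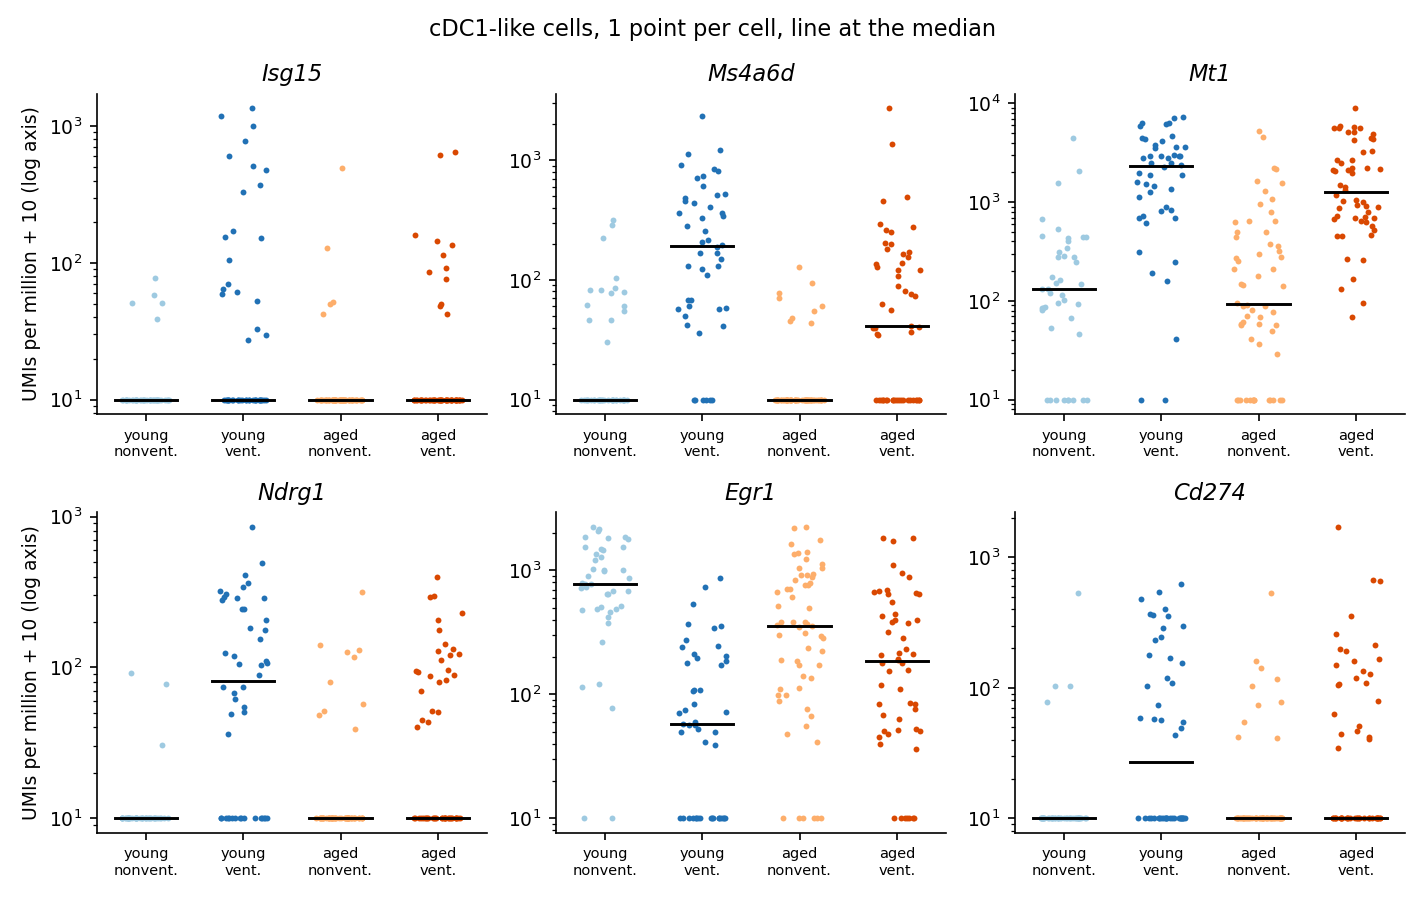
Level of 6 genes in each cDC1-like cell (points) of the 4 libraries, in CPM plus 10 on a log axis, with the median as a line. Cells with no UMI lie at 10; the *Mt1* median lies at 2318 and 1252 CPM in the ventilated libraries, and *Isg15* is detected in 21 of 48 young ventilated cells and 12 of 54 aged ventilated cells.

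The ventilation comparisons at the 2 ages share no library, so their genes can be set against each other. Of the genes at least 2-fold higher with ventilation, 27 were so at both ages, which is 22.0% of the 123 young and 51.9% of the 52 aged genes, where 3.55% of the 2982 genes tested at both ages were past 2-fold higher in young and 1.48% in aged mice. Of the genes at least 2-fold lower, 25 were so at both ages, 15.2% of the 165 young and 23.1% of the 108 aged genes, where the shares of the 2982 genes were 4.83% and 3.15%. Of the 106 young higher genes that were also tested in aged mice, 84 had a ratio above 1 there, with a median log2 ratio of 0.54 against 1.32 in young mice, whose values chose them. Of the 44 aged higher genes also tested in young mice, 42 had a ratio above 1 there, with a median of 1.21 against 1.36 in aged mice, whose values chose them. In the other direction, 127 of 144 young lower genes also tested in aged mice had a ratio below 1 there (median -0.50 against -1.24), and 65 of 94 aged lower genes had one in young mice (median -0.41 against -1.28). Of all 2982 genes, 52.9% had a ratio above 1 and 47.1% below 1 in young mice, and 45.0% and 55.0% in aged mice.

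**Figure D4:**
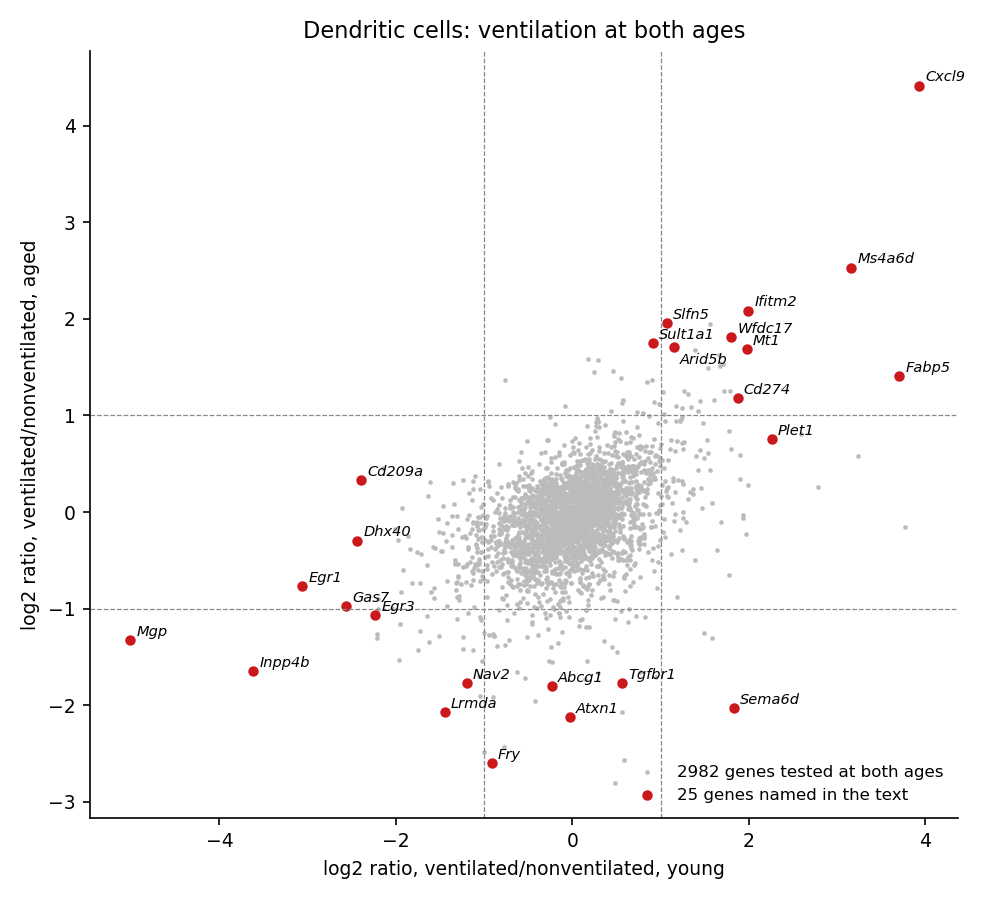
Log2 ratio of ventilated to nonventilated in young (horizontal axis) and aged (vertical axis) dendritic cells for the 2982 genes tested at both ages (grey), with 25 genes named in the text in red and dashed lines at 2-fold. *Ms4a6d*, *Ifitm2* and *Mt1* lie past 2-fold at both ages, *Egr1*, *Dhx40* and *Cd209a* in young mice alone, and *Sema6d* on opposite sides; *Mgp* and *Cxcl9* rest largely on few cells.

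Immediate early genes, which are transcribed within minutes of a stimulus and then switched off, were lower in the young ventilated library. Of 30 listed genes, 28 were tested in young mice and 13 were at least 2-fold lower, against 5.20% of all genes tested, with none at least 2-fold higher and a median log2 ratio of -0.85 against 0.04 over all genes tested. Counting every listed gene, 26 of 30 had a ratio below 1. *Jun* was at 441 CPM in young nonventilated and 125 CPM in young ventilated cells and at 302 and 181 CPM in the aged cells, and *Fosb* at 899 CPM in young nonventilated and 296 CPM in young ventilated cells and at 643 and 361 CPM in the aged cells. *Jun* was 3.54-fold lower in young and 1.67-fold lower in aged mice, and *Fosb* 3.04-fold lower and 1.78-fold lower. *Fos* was at 913 CPM in young nonventilated and 359 CPM in young ventilated cells and at 494 and 523 CPM in the aged cells, 2.54-fold lower (95% interval 2.30 to 2.80) in young mice and 1.06-fold higher (95% interval 0.97 to 1.15) in aged mice.

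In aged mice, 1 of the 28 tested immediate early genes was at least 2-fold lower, *Egr3* at 337 and 160.2 CPM (2.10-fold lower, 95% interval 1.84 to 2.41), against 3.41% of all genes, and the median log2 ratio was -0.19 against -0.05. The summed level of the 30 genes was 14918 CPM in the young nonventilated and 8535 in the young ventilated library, and 11702 and 10238 in the aged ones. For the same genes, the median log2 ratio in young mice was -0.83 in the C1q-high MHC class II cells outside the dendritic cells (50 nonventilated and 37 ventilated) and -0.16 over all other cells kept. In aged mice it was -0.23 (46 and 58 cells) and -0.30. These genes also respond to tissue dissociation, whose part was not tested.

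Most interferon response genes had higher levels with ventilation. Of 42 listed genes, 41 were in the files and 10 passed the filter in young mice, of which 7 were at least 2-fold higher, against 3.88% of all genes. Since a gene could pass through its higher library alone, the whole list is also given, and 39 of 41 genes had a ratio above 1, with a summed level of 1436 CPM in the nonventilated and 3284 in the ventilated library. The median log2 ratio of the 10 was 1.10. *Ifi205*, a DNA-binding protein of the interferon-inducible p200 family, was at 226 CPM in young nonventilated and 779 CPM in young ventilated cells and at 271 and 647 CPM in the aged cells (3.45-fold higher, 95% interval 3.08 to 3.88, in young and 2.38-fold higher, 95% interval 2.16 to 2.63, in aged mice). Its relative *Ifi211* was at 81.5 CPM in young nonventilated and 239 CPM in young ventilated cells and at 75.6 and 213 CPM in the aged cells (2.93-fold higher and 2.81-fold higher). These genes are similar in sequence, and reads may be split among them. Both are among the 10 genes that led the cDC1-like cells by ratio, and the cDC1-like share was larger in the ventilated libraries. In the cDC1-like cells alone their log2 ratios were 1.44 and 1.24 in young and 1.02 and 1.24 in aged mice, and the median of the list was 1.34 and 0.75. *Trim30a* was at 91.3 CPM in young nonventilated and 246 CPM in young ventilated cells and at 82.1 and 169 CPM in the aged cells (2.70-fold higher and 2.06-fold higher). The promoters of *Isg15*, *Slfn5*, *Trim30a* and *Ifi211* are those shown above with the GAAANNGAA core.

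In aged mice, 5 of 10 tested interferon response genes were at least 2-fold higher with ventilation, against 1.64% of all genes, with a median log2 ratio of 0.85, and 29 of the 40 listed genes with a UMI had a ratio above 1. *Ly6e*, a surface protein gene of the list, was 2.17-fold higher (95% interval 1.99 to 2.36) in aged and 1.97-fold higher (95% interval 1.79 to 2.18) in young mice. For the list, the median log2 ratio was 1.25 in the C1q-high cells and 0.76 over all other cells in young mice, and 0.87 and 0.18 in aged mice.

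**Figure D5:**
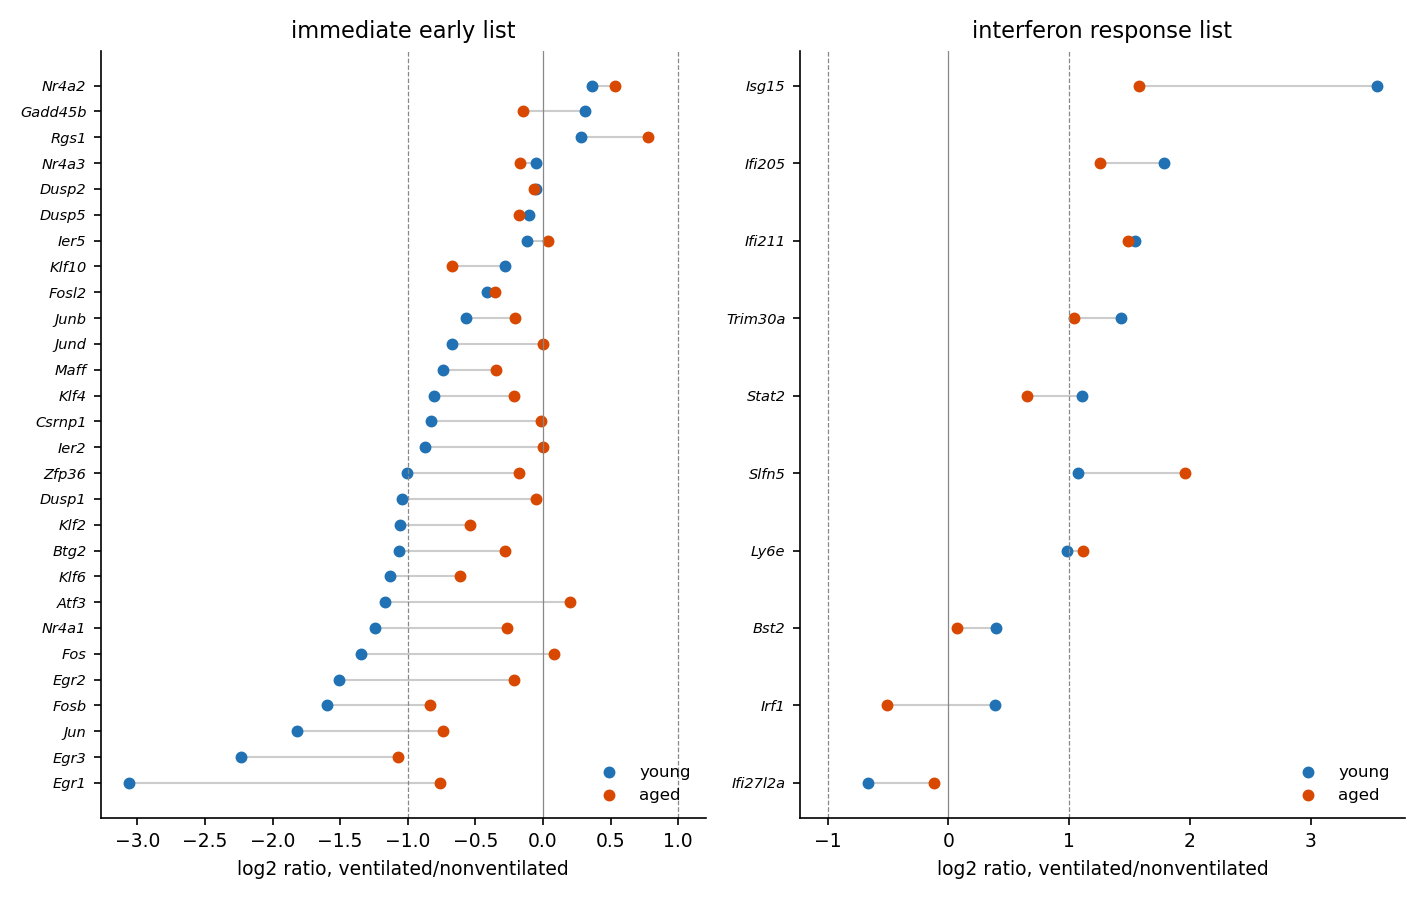
Log2 ratio of ventilated to nonventilated in young (blue) and aged (orange) dendritic cells for tested genes of the immediate early list (left) and the interferon response list (right), with dashed lines at 2-fold. From *Zfp36* to *Egr1*, 13 immediate early genes lie at or beyond 2-fold lower in young mice and 1 of them, *Egr3*, in aged mice.

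The metallothioneins were higher with ventilation at both ages. *Mt1* was at 739 CPM in young nonventilated and 2907 CPM in young ventilated cells and at 641 and 2060.2 CPM in the aged cells (3.93-fold higher, 95% interval 3.70 to 4.19, in young and 3.22-fold higher, 95% interval 3.03 to 3.42, in aged mice). *Mt2* was at 162 CPM in young nonventilated and 534 CPM in young ventilated cells and at 127 and 304 CPM in the aged cells (3.30-fold higher and 2.39-fold higher). Over all other cells kept, the log2 ratio of *Mt1* was 3.39 in young and 2.74 in aged mice, against 1.98 and 1.68 in the dendritic cells. Of the 13 tested genes of the glucocorticoid and metal response list, *Mt1* and *Mt2* were the 2 that were at least 2-fold higher at each age, while *Tsc22d3* and *Dusp1* in young mice and *Sgk1* and *Cebpb* in aged mice were at least 2-fold lower, against 3.88% higher and 5.20% lower of all genes in young and 1.64% and 3.41% in aged mice, and the median log2 ratio was -0.29 and -0.03. *Cebpb* and *Sgk1* were at 1057 and 799 CPM in the macrophage-marker cells, against 21.6 and 72.4 CPM in the cDC1-like cells. The log2 ratio of *Cebpb* in aged mice was -1.39, but -0.88 without the macrophage-marker cells and 0.53 in the cDC1-like cells, where its direction turned, and that of *Sgk1* was -1.18, -0.69 and -0.79. Of the oxidative stress genes, 3 of 11 were at least 2-fold higher in young mice, against 3.88% of all genes, the cystine transporter gene *Slc7a11*, the ferritin gene *Fth1* (2.37-fold higher) and the thioredoxin gene *Txn1* (2.23-fold higher), and 0 of 12 in aged mice, against 1.64%. *Slc7a11* was at 10.3 and 102 CPM in young mice, at 5.15 CPM in the young ventilated cDC1-like cells, and a single cell held 55.6% of its young nonventilated UMIs.

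In the antigen presentation lists the counts past 2-fold were 0, where the share of all genes was 3.88% higher and 5.20% lower in young and 1.64% and 3.41% in aged mice, so that few would be past it at those shares. None of the 15 tested MHC class II presentation genes in young mice, and none of the 14 in aged mice, was at least 2-fold different, with median log2 ratios of 0.19 and 0.24. *H2-Aa* was at 6777 CPM in young nonventilated and 7822 CPM in young ventilated cells and at 6060.1 and 7702 CPM in the aged cells, 1.15-fold higher (95% interval 1.13 to 1.18) in young and 1.27-fold higher (95% interval 1.24 to 1.30) in aged mice. The list includes *H2-Ab1* and *Cd74*, which chose the cells. None of the 18 tested MHC class I presentation genes was at least 2-fold different at either age, with medians of 0.10 and 0.04. The costimulatory ligand genes *Cd80* and *Cd86* were at 448, 498, 404 and 359 CPM and 1017, 1107, 1036 and 1039 CPM.

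Of the 9 tested costimulation and checkpoint genes, 1 was at least 2-fold higher at each age, against 3.88% of all genes in young and 1.64% in aged mice. It was *Cd274*, which encodes the T cell-inhibiting ligand PD-L1. *Cd274* (chr19:29367455-29388095, + strand) was at 35.6 CPM in young nonventilated and 132 CPM in young ventilated cells and at 52.6 and 119.9 CPM in the aged cells, 3.71-fold higher (95% interval 2.78 to 5.01) in young and 2.28-fold higher (95% interval 1.82 to 2.88) in aged mice. Its ventilated libraries stood above both nonventilated ones. *Pdcd1lg2*, which encodes the second PD-1 ligand, was below the 50 CPM mean in both ventilation comparisons and had 1, 114, 11 and 61 UMIs in the 4 libraries, with 28.9% of those of the young ventilated library in 1 cell.

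Chemokine and cytokine genes went in both directions. In young mice, 4 of 17 tested genes were at least 2-fold higher and 3 lower, against 3.88% and 5.20% of all genes, and in aged mice 3 of 16 were higher and 2 lower, against 1.64% and 3.41%, with median log2 ratios of 0.50 and 0.03. *Ccl5*, 1 of the 3 lower genes in young mice, had a log2 ratio of -2.05, but of 0.21 in the cDC1-like cells. It was at 9193 CPM in the mature dendritic-like cells. In the young nonventilated and ventilated libraries, 1 cell held 38.3% and 46.9% of its UMIs. *Ccl4*, a chemokine for T cells and NK cells, was at 295 CPM in young nonventilated and 870.2 CPM in young ventilated cells and at 168 and 651 CPM in the aged cells (2.95-fold higher, 95% interval 2.66 to 3.27, in young and 3.87-fold higher, 95% interval 3.44 to 4.36, in aged mice), and 1 cell held 36.4% and 40.8% of its UMIs in the nonventilated libraries. *Il1a*, an alarmin cytokine gene, was at 121 CPM in young nonventilated and 25.9 CPM in young ventilated cells and at 73.3 and 36.2 CPM in the aged cells, 4.68-fold lower (95% interval 3.33 to 6.74) in young and 2.02-fold lower (95% interval 1.52 to 2.72) in aged mice. *Tnf* was at 219 CPM in young nonventilated and 86.6 CPM in young ventilated cells and at 120.4 and 83.2 CPM in the aged cells, 2.52-fold lower in young and 1.45-fold lower in aged mice, while over all other cells kept its log2 ratio was 1.45 and 1.03. *Ccl2*, a monocyte chemokine gene, was at 25.8 and 78.6 CPM in aged mice (3.04-fold higher, 95% interval 2.23 to 4.21) and at 41.9 and 25.2 CPM in young mice, but 1 cell held 37% of the UMIs of the aged ventilated and 49.3% of those of the young nonventilated library, so no direction is read in young mice. *Cxcl9*, an interferon-induced T cell chemokine gene, had large ratios at both ages (28 and 391 UMIs in young, 12 and 250 in aged mice), but 1 cell held 30.9% of the UMIs in the young and 41.2% in the aged ventilated library.

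The transcription factors of the lineage come next. *Batf3*, required for cDC1 development, was at 86.7 CPM in young nonventilated and 82.8 CPM in young ventilated cells and at 71.5 and 88.3 CPM in the aged cells, and both intervals of the ventilation ratio held 1. *Irf8*, the leading cDC1 factor, was at 633 CPM in young nonventilated and 425 CPM in young ventilated cells and at 531 and 414 CPM in the aged cells, 1.49-fold lower (95% interval 1.35 to 1.64) in young and 1.28-fold lower (95% interval 1.17 to 1.41) in aged mice. Of the 18 tested transcription factor genes, *Ikzf1* and *Nfil3* were at least 2-fold higher in young mice, against 3.88% of all genes, and none passed 2-fold in aged mice, with medians of -0.24 and -0.09. Of the chemokine receptor and migration genes, *Ccr2* was at least 2-fold lower and *Ccr7*, which chose cells, higher among 13 tested in young mice, and *Cd44* lower among 12 in aged mice, against 3.88% higher and 5.20% lower of all genes in young and 3.41% lower in aged mice, with medians of -0.11 and -0.16. *Cd44* was at 1470 CPM in young nonventilated and 735 CPM in young ventilated cells and at 1199 and 504 CPM in the aged cells. It was thus lower in young mice too, where it was not counted as past 2-fold after adding 1 UMI. *Ccr2*, the receptor for *Ccl2*, was at 305 CPM in young nonventilated and 103 CPM in young ventilated cells and at 149 and 115 CPM in the aged cells and was 2.95-fold lower (95% interval 2.47 to 3.55) in young and 1.30-fold lower (95% interval 1.09 to 1.54) in aged mice. Of the pattern receptors and lectins, 3 of 12 were at least 2-fold higher and 2 lower in young mice, against 3.88% and 5.20% of all genes, and 1 of 11 higher and 1 lower in aged mice, against 1.64% and 3.41%. Of the lower genes, *Cd209a* in young mice is a gene that chose the cells, and *Mrc1* in aged mice had a log2 ratio of -1.09, and of 1.71 without the macrophage-marker cells. The list had medians of 0.30 and -0.01. In young mice the median was -0.12 in the cDC1-like cells and 0.075 without the macrophage-marker cells. *Clec4n*, 1 of the 3 higher genes in young mice, had a log2 ratio of 1.00, but of -0.20 in the cDC1-like cells. The RNA sensor gene *Tlr3* was 2.23-fold lower in young mice and 1.09-fold higher in aged mice, and the lipopolysaccharide coreceptor gene *Cd14* was 1.38-fold higher and 2.76-fold higher.

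The genes that chose the cells are given for completeness. *Flt3* was at 219 CPM in young nonventilated and 231 CPM in young ventilated cells and at 234 and 231 CPM in the aged cells. *Xcr1* was at 151, 139.6, 155 and 173 CPM, *Clec9a* at 129.7, 109, 161 and 160.2, and *Zbtb46* at 184, 148, 279 and 189. The chemokine gene *Ccl22* was at 400.2, 553, 402 and 214 CPM and *Ccl17* at 1341, 2538, 1038 and 1315 CPM, both highest in the young ventilated library. *Ccr7* was at 106, 333, 267 and 203 CPM, and a single cell held 70.3% of its UMIs in the young nonventilated library.

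The counts of the other lists stand against the same shares of all genes, 3.88% higher and 5.20% lower in young and 1.64% and 3.41% in aged mice. Of the NF-kB targets and feedback genes, 3 of 27 were higher and 2 lower in young mice and 0 of 26 passed 2-fold in aged mice, with medians of 0.11 and -0.13. None of 12 hypoxia and glycolysis genes passed 2-fold at either age (medians 0.36 and 0.25), and none of 10 heat shock and chaperone genes in young or 9 in aged mice (medians 0.12 and 0.24). Of the proliferation genes, *Top2a* was at least 2-fold higher in young mice (1 of 8, all 8 with a ratio above 1) and *Ube2c* in aged mice (1 of 9, 3 with a ratio above 1), with medians of 0.80 and -0.34. Among cells with at most 5000 genes the young median was -0.67. Of 6 integrated stress response genes, 2 were at least 2-fold lower in young and 0 in aged mice (medians -0.24 and -0.37). Of 16 pan-dendritic genes, 0 passed 2-fold in young mice and 1, *Kmo*, was higher in aged mice (medians 0.07 and 0.27), in a list that holds *Flt3*, *Zbtb46*, *Cd74* and *H2-Ab1*, which chose the cells. Of 17 lysosome and endocytosis genes, 2 were higher in young mice. Of 19 in aged mice, 2 were higher, *Lyz1* and *Fabp5*, and 5 lower, *Lyz2*, *Ctsd*, *Lamp1*, *Apoe* and *Lpl*. The medians were 0.17 and -0.67, but -0.12 and -0.37 without the macrophage-marker cells, and 0.14 and -0.23 in the cDC1-like cells. In the cDC1-like cells the aged log2 ratios of *Lyz1* and *Fabp5* were -1.41 and -3.93, against 2.20 and 1.41 in all dendritic cells. Over the 4 libraries together, 1 cell held 68.4% of the *Lyz1* UMIs. The cathepsin gene *Ctsd* was at 141 CPM in young nonventilated and 209 CPM in young ventilated cells and at 488 and 142 CPM in the aged cells, and at 17.8 and 14.9 CPM in the aged cDC1-like cells, and without the macrophage-marker cells 1 of 17 lysosome and endocytosis genes was at least 2-fold lower.

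The second question was how aged dendritic cells differ from young ones. These comparisons use the same libraries as those above, so their genes were not overlapped with the ventilation results. Without ventilation, 47 of 3187 genes were at least 2-fold higher in the aged library (1.47%) and 13 were lower (0.408%). The largest ratios were those of the semaphorin *Sema6d* at 28.7 and 114 CPM (3.97-fold higher, 95% interval 2.92 to 5.49), *Specc1* at 72.3 and 229 CPM (3.17-fold higher, 95% interval 2.60 to 3.88) and *Nfil3*, a factor upstream of cDC1 development, at 24.7 and 77 CPM (3.12-fold higher, 95% interval 2.22 to 4.47). *March3*, a ubiquitin ligase gene, was 2.66-fold higher and the lysosomal transporter gene *Slc15a3* 2.56-fold higher. Lower in the aged library were *Stxbp6* at 78.1 and 27.2 CPM (2.87-fold lower, 95% interval 2.10 to 3.96), the leukotriene receptor gene *Cysltr1* (2.40-fold lower), *Rnd3* (2.30-fold lower), the stress-response factor *Atf3* (2.26-fold lower) and *Cd209a* (2.18-fold lower). *Cd209a* is a gene that chose the cells, and its ratio is given as a description. In the cDC1-like cells alone the log2 ratio of *Stxbp6* was -0.34, against -1.51 in all dendritic cells. *Stxbp6* was at 459 CPM in the monocyte-marker and 11.9 CPM in the cDC1-like cells. The monocyte-marker cells numbered 8 in the young and 2 in the aged nonventilated library. The log2 ratios of *Specc1*, *Nfil3* and *Slc15a3* in the cDC1-like cells alone were 2.65, 2.41 and 1.95, against 1.66, 1.62 and 1.34 in all dendritic cells. In the lysosome and endocytosis list, 4 of 18 genes were at least 2-fold higher, *Ctsd*, *Cd63*, *Apoe* and *Fabp5*, with a median log2 ratio of 0.47, which was 0.21 without the macrophage-marker cells and 0.029 in the cDC1-like cells. In the interferon response list, 2 of 8 tested genes were at least 2-fold higher, among them *Irf1* (2.07-fold higher), but the median log2 ratio was -0.06. Of the 40 listed genes with a UMI, 21 had a ratio above 1 and 19 below. *Irf1* was at 408 CPM in the mature dendritic-like and 29.5 CPM in the cDC1-like cells. The mature dendritic-like cells numbered 3 in the young and 7 in the aged nonventilated library. In the immediate early list 1 of 28, *Atf3*, was lower, with a median of -0.34 against 0.02 over all genes tested.

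After ventilation, 25 of 3111 genes were at least 2-fold higher in the aged library (0.804%) and 55 were lower (1.77%). *Egr1* was 2.80-fold higher (95% interval 2.33 to 3.38), the kinase gene *Prkcb* 4.58-fold higher (95% interval 3.09 to 6.99), *Immp2l* 2.83-fold higher, *Cox7a2l* 2.35-fold higher and *Cd209a* 3.05-fold higher in the aged library. *Flrt3* was 4.25-fold lower (95% interval 3.16 to 5.79), *Ramp3* 3.95-fold lower (95% interval 3.08 to 5.11), *Sema6d* 3.75-fold lower and *Tgfbr1* 3.27-fold lower. *Cd209a* is a gene that chose the cells and a cDC2 marker, and its ratio is a description. The cDC2-like cells numbered 8 in the young and 13 in the aged ventilated library. The log2 ratio of *Prkcb* was 1.28 in the cDC1-like cells alone, against 2.16 in all dendritic cells, and *Prkcb* was at 229 CPM in the cDC2-like and 25.1 CPM in the cDC1-like cells, while the log2 ratio of *Flrt3* was -2.73 in the cDC1-like cells, against -2.07. The matrix metalloproteinase gene *Mmp19* was 2.89-fold lower, with a log2 ratio of -1.52 and of -0.59 without the macrophage-marker cells. *Isg15* was 2.84-fold lower (95% interval 2.19 to 3.69) in the aged ventilated library, the 1 gene of 11 tested interferon response genes past 2-fold, and 2 of 27 immediate early genes, *Egr1* and *Egr3*, were at least 2-fold higher. Over the whole interferon response list, 31 of 41 genes had a ratio below 1 and 10 above. Their summed level was 3284 CPM in the young and 2812 CPM in the aged ventilated library. Of 19 chemokine and cytokine genes, *Ccl2* and *Ccl7* were higher and *Ccl3*, *Ccl22*, *Cxcl2*, *Spp1* and *Il1rn* lower, of which *Ccl22*, like *Ccl17* in the same list, is a gene that chose the cells, with a median log2 ratio of -0.42 against -0.03 over all genes tested. *Cxcl2* had a log2 ratio of 0.11 without the macrophage-marker cells. *Spp1* and *Il1rn* were at 502 and 248 CPM in the macrophage-marker cells, against 37.2 and 0.79 CPM in the cDC1-like cells. In the aged ventilated library, 1 cell held 37.0% of the *Ccl2*, 33.9% of the *Ccl7* and 45.6% of the *Ccl3* UMIs. Of 9 proliferation genes, 1, *Stmn1*, was at least 2-fold lower and all 9 had a ratio below 1, with a median of -0.75. None of the 14 MHC class II or 18 class I presentation genes tested passed 2-fold in either age comparison. The shares of all genes were 1.47% higher and 0.408% lower without ventilation and 0.804% and 1.77% after it, so few would be past 2-fold.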

How the data were processed

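Left-lobe lung cells were captured by droplet scRNA-Seq (10x Chromium, 3' chemistry). The authors aligned reads and counted UMIs with Cell Ranger (version 7.0.0 in the submitters' processing notes) on the mouse genome mm10, and the deposited values are raw UMI counts for 32285 genes and 15428 barcodes, not normalized. From these, cells were filtered and chosen as described, UMIs were summed per library and scaled to CPM, and ratios were given exact conditional binomial 95% intervals, levels exact Poisson and shares exact binomial intervals (Python 3.11.15, numpy 2.4.6, scipy 1.17.1, pandas 2.3.3). No doublet caller was run. The members and gene lists were chosen with earlier results of these data known, and the limits of the subsets after the cells were seen. Genes were named as the 8 (ventilation) or 5 (age) largest ratios in each direction among tested genes whose interval left out 1, with a UMI in at least 10 cells of the higher library and at most 20% of its UMIs in 1 cell, with the 8 genes that chose the cells and members of the lists added, and a few genes that met this are not reported here. Intervals ignore differences between mice. Scripts were tested on simulated data. Alternatives changed the cell filters, the choice of cells, scaling, weighting, depth and the filter on low values.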

Additional observations from a re-analysis of the deposited data

Results flagged for a closer look

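In 3 genes, ventilation went with a difference past 2-fold in opposite directions at the 2 ages, and the difference between the ages was not tested, since each group was 1 library. *Sema6d* had a log2 ratio of ventilated to nonventilated of 1.83 in young and -2.03 in aged dendritic cells, and of 1.78 and -2.50 in the cDC1-like cells alone, where its level was 28.7, 101, 133 and 23 CPM in the young nonventilated and ventilated and the aged nonventilated and ventilated cells. *St7* had log2 ratios of 1.58 and -1.31, and of 1.32 and -0.13 without the macrophage-marker cells, which numbered 4, 4, 8 and 2. *Dip2c* had log2 ratios of 1.49 and -1.25, and of 0.74 and 0.21 without those cells. In the macrophage-marker cells *St7* was at 607 CPM and *Dip2c* at 797 CPM, against 15.2 and 27.7 CPM in the cDC1-like cells.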

How the results depend on the processing

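Values of genes named by ratio, of list members past 2-fold and of genes opposite at the 2 ages were recomputed, and of 1932 values 1460 stayed within their counting interval, 435 moved out of it and 37 changed sign (log2 ratios follow). These were, in the cDC1-like cells alone, *Ccl5* (0.21) and *Clec4n* (-0.20) with ventilation in young mice, *Abcg1* (0.060), *Atxn1* (0.51), *Cebpb* (0.53), *Dip2c* (0.35), *Fabp5* (-3.93), *Lamp1* (0.42) and *Lyz1* (-1.41) in aged mice, *Cd63* (-1.47) with age without ventilation and *Lyz1* (-0.65) after it. With cDC1-like and cDC2-like cells weighted equally they were *Ccl5* (3.98) in young mice, *Dip2c* (0.57), *Mrc1* (1.97) and *St7* (0.16) in aged mice, and *Cxcl2* (0.31) and *Lpl* (3.51) with age after ventilation. Without the macrophage-marker cells they were *Dip2c* (0.21) and *Mrc1* (1.71) in aged mice, and *Cxcl2* (0.11) and *Lpl* (1.47) with age after ventilation. With at most 5000 genes they were *Dip2c* (-0.58) and *Top2a* (-0.81) in young mice, *Apoe* (1.25), *Dip2c* (0.25), *Lyz1* (-2.11) and *Mrc1* (0.00287) in aged mice and *Lyz1* (-0.85) with age after ventilation. With at least 3 of the 8 genes they were *Cebpb* (0.18), *Ctsd* (0.011), *Dip2c* (0.37), *Lpl* (0.11), *Mrc1* (2.13) and *St7* (0.98) in aged mice and *Cxcl2* (0.14) with age after ventilation. With cells thinned to 2000 UMIs they were *Dip2c* (0.057) in aged mice and *Pdcd1lg2* (0.18) with age after ventilation. Of 1140 list medians, 1040 moved by at most 0.2 and 100 by more, and 117 changed sign, 8 of them among the 480 values of lists with a median past 0.2. Those were the pattern receptors in young mice in the cDC1-like cells (-0.12, main 0.30), the integrated stress response in young mice with thinned cells (0.22, main -0.24), proliferation in young mice with at most 5000 genes (-0.67, main 0.80), the glucocorticoid and metal response with age without ventilation in the cDC1-like cells (0.12, main -0.25), and the pattern receptors with age after ventilation (main -0.34) with at most 5000 genes (0.028), at least 3 of the 8 genes (0.28), no macrophage-marker cells (0.23) and equal weights (0.48). With at most 5% mitochondrial UMIs, the dendritic cell share was 3.37% in young nonventilated mice, and 3.96% and 3.72% in nonventilated and ventilated aged mice. Among cells with a *Ptprc* UMI the shares were 8.62%, 5.26%, 7.84% and 6.33%. The cDC2-like share of the young nonventilated library was 38.0% with cells thinned to 2000 UMIs, and the cDC1-like share of the aged nonventilated library 73.8% with at least 3 of the 8 genes. Counts of genes past 2-fold followed the filter on low values, since it sets how many genes are compared, and with at least 20 CPM or no filter more genes were higher with age without ventilation than with ventilation in aged mice. With a mean of at least 20 CPM, 263 genes were higher and 311 lower with ventilation in young and 97 and 255 in aged mice, and 136 and 47 with age without ventilation and 79 and 144 with it. With at least 100 CPM these counts were 70 and 83, 29 and 48, 16 and 6, and 14 and 22. With no filter on CPM they were 496 and 673, 247 and 692, 459 and 163, and 340 and 338. With cDC1-like and cDC2-like cells weighted equally, 192 genes were higher with ventilation in young mice, 21 were lower with age without ventilation, and 74 were higher and 88 lower with age after ventilation. With cells thinned to 2000 UMIs, 89 genes were higher and 32 lower with age without ventilation and 51 higher after ventilation. With at most 5000 genes per cell, 30 were lower with age without ventilation and 54 higher after it. With at least 3 of the 8 genes, 30 were lower with age after ventilation, and without the macrophage-marker cells 36 were. In the cDC1-like cells alone, 21 were lower with age without ventilation. The cause of these differences was not tested. Leaving out cells with 3 or more UMIs of other cell types left 2, 0, 0 and 2 cells and gave no value. Leaving out the macrophage-marker cells and taking the cDC1-like cells alone were chosen after seeing the data. No paired analysis was possible because each group was 1 library, and for the same reason no library could be left out. With 63 to 98 cells per library, a gene found in few cells can rest on 1 of them.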
